A study of Mus musculus with 12 samples.

Results

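The nuclear factor kappa B (NF-κB) subunits and their inhibitors are 10 genes of the 15651 in the deposited expression table. They were chosen by gene symbol. They comprise the 5 subunits *Rela*, *Relb*, *Rel*, *Nfkb1* and *Nfkb2*, the 4 IκB family members *Nfkbia*, *Nfkbib*, *Nfkbie* and *Bcl3*, and *Tnfaip3*, which encodes A20. All 10 passed the filter on low values in every comparison. Messenger RNA was measured in c-Kit+ spleen cells of mice with acute myeloid leukemia (AML), a cancer of blood progenitors. *D/F* mice carried Dnmt3a fl/fl, Flt3 ITD/ITD and Mx1Cre. *T/F* mice carried Tet2 fl/fl in place of Dnmt3a fl/fl, with the same Flt3 ITD/ITD and Mx1Cre alleles. *Dnmt3a* encodes a DNA methyltransferase and *Tet2* an enzyme that oxidizes methylated cytosine, while Flt3 ITD is an activating receptor mutation that both genotypes share, so no comparison here isolates it. Mx1Cre drives the recombinase from an interferon-responsive promoter that is not restricted to blood cells. Cells were held in culture for 6 hours with the vehicle DMSO or with CCS1477, an inhibitor of the bromodomain of the acetyltransferases p300 and CBP, at 4 µM for *D/F* and 2 µM for *T/F*. Each of 3 mice per genotype gave 1 DMSO and 1 CCS1477 library, 12 libraries in all. The mouse numbers 1 to 3 are those of the labels, and mouse 1 of *D/F* is not related to mouse 1 of *T/F*. Dose and genotype cannot be told apart in any comparison between genotypes.

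NF-κB is a family of dimeric transcription factors. In resting cells, IκB proteins hold the dimers inactive, and signals from tumor necrosis factor, interleukin-1 or Toll-like receptors lead the IκB kinase (IKK) to mark IκB for destruction. Several IκB genes and *Tnfaip3* are themselves turned on by NF-κB, which gives the pathway its negative feedback. In myeloid cells the pathway is known for inflammatory gene expression and cell survival, and p300 and CBP are known coactivators of the RelA subunit.

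Because NF-κB can act on its own genes, the promoters of the members were searched for the κB consensus motif, on both strands, in the 250 bases before each RefSeq start site of build GRCm38.p6. A promoter was given for 8 of the 10 genes, all but *Relb* and *Nfkb1*. Of these 8 genes, 5 held a match, or 62.5%, against 8.23% of the 27025 mouse genes with a promoter in the same table. Other genes of the pathway, in the 5 lists taken up below, also held matches. Their share ran from 0 of 6 genes for linear ubiquitin and degradation to 33.3% (4 of 12) for other brakes and atypical IκB. It was 32.3% (10 of 31) for NF-κB target genes. Among the members, the promoters of *Rel*, *Nfkb2*, *Nfkbia*, *Nfkbie* and *Tnfaip3* held a match, while those of *Rela*, *Nfkbib* and *Bcl3* held none. A match is a run of letters and not a measured binding site. The whole upstream stretch is printed for the 2 classical IκB genes with a match, *Nfkbia* and *Nfkbie*, 5′ to 3′ toward the start site, with the matching letters in capitals. *Nfkbia* is taken from the minus strand at chr12:55492648-55492897 and *Nfkbie* from the plus strand at chr17:45555450-45555699.
Nfkbia: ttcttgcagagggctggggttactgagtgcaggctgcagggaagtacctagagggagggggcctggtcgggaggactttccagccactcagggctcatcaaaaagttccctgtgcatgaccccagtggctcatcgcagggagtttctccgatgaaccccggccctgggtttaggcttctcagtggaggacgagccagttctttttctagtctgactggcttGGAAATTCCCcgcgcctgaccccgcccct
Nfkbie: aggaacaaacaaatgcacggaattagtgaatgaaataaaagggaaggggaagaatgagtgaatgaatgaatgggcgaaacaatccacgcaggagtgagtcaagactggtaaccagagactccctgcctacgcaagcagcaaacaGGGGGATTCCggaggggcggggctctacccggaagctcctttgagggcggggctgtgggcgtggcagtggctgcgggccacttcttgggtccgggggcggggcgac

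The match in *Nfkbia* began 29 bases before the start site and that in *Nfkbie* began 106 bases before it. In *Nfkb2* the letters GGGAATTCCC began 39 bases and GGGGCTTTCC 11 bases before the start site of its first promoter. In *Rel* the letters GGGAAATCCC began 92 bases before the start site. *Tnfaip3* held GGGACACCCC at 125 bases and GGAAATCCCC at 12 bases before the start site of its first promoter. Whether a match goes with the levels by mouse or by treatment was not tested.

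Levels are given in TPM, transcript counts scaled for transcript length and library size, so that genes can be compared. The 5 subunits together summed to 277 ± 96.6 TPM (SD, n = 3) in *D/F* DMSO and 309 ± 75.1 TPM (SD, n = 3) in *T/F* DMSO. *Nfkb1*, which encodes p105 and its processed product p50, was the highest member in both genotypes. It stood at 147 ± 34.7 TPM (SD, n = 3) in *D/F* DMSO and 165 ± 33.8 TPM (SD, n = 3) in *T/F* DMSO, and its lowest library lay above every library of the next member, *Nfkbia*. The lowest 2 members in both genotypes were *Nfkbie* and *Tnfaip3*, with means of 17.4 to 19.5 TPM. In *D/F* DMSO, each member from the second down had libraries overlapping those of the next in the order. In *T/F* DMSO the same held except for *Bcl3*, the third, whose libraries all lay above those of *Nfkbib*, the fourth.

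**Figure D1:**
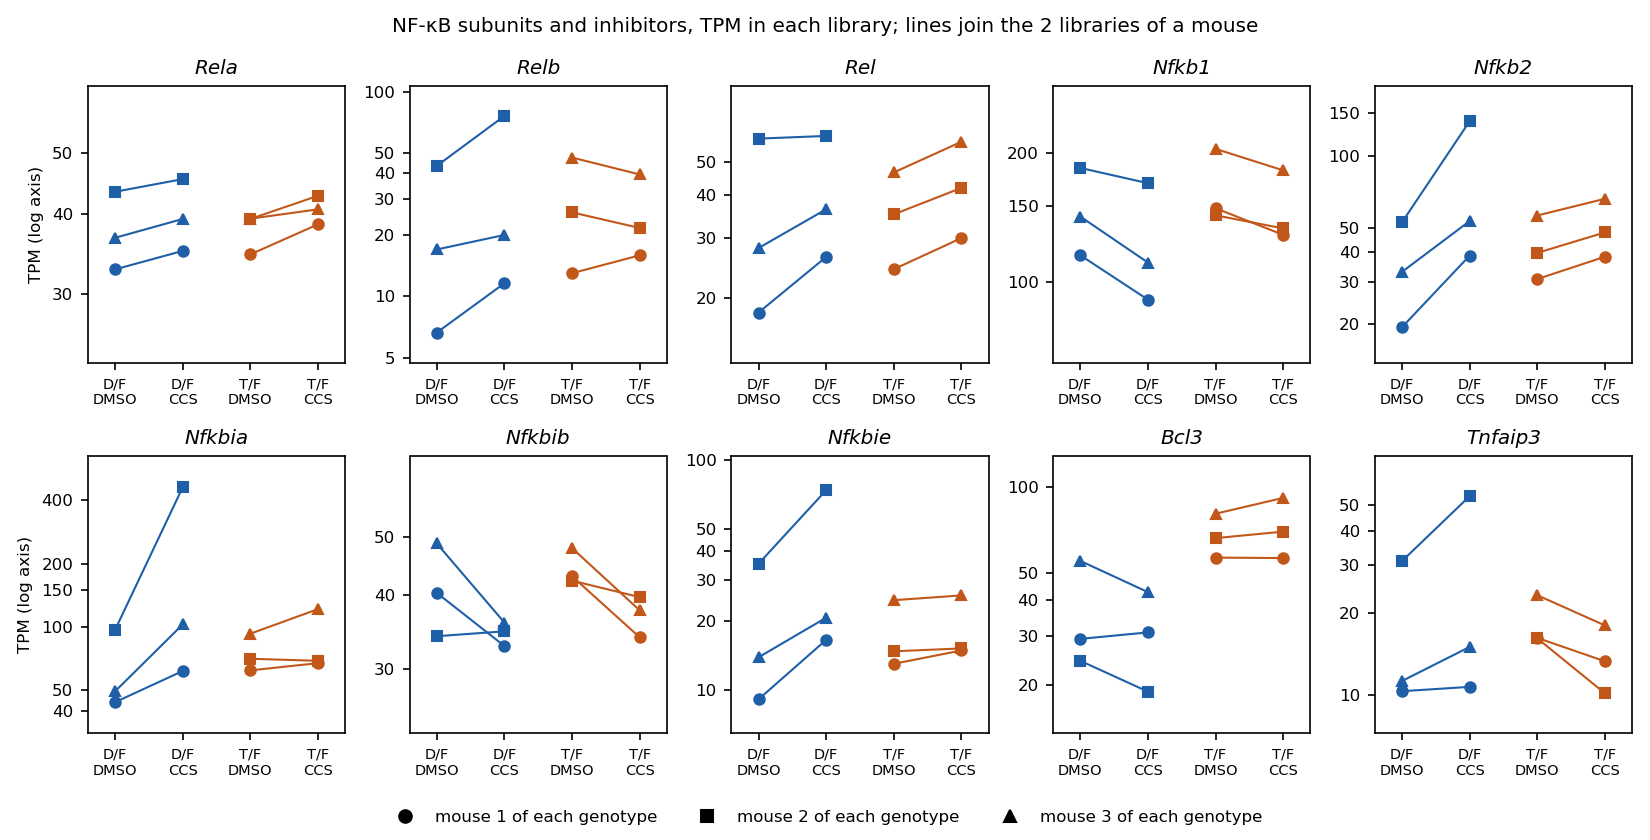
TPM (log axis) of the 10 members in each of the 12 libraries, with blue for *D/F*, orange for *T/F*, a marker shape for the mouse number and a line joining the DMSO and CCS1477 libraries of a mouse. *D/F* mouse 2 and *T/F* mouse 3 lie at the top of most panels, and the lines of *Nfkb2* slope upward in 6 of 6 mice.

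For most members, mice of the same genotype and treatment differed by more than treatments did. *Relb*, the partner of p52 in the noncanonical pathway, was at 6.66 TPM, 43.4 TPM and 16.96 TPM in the DMSO libraries of *D/F* mice 1, 2 and 3, a 6.52-fold range. In *T/F* DMSO it was at 12.98 TPM, 25.7 TPM and 47.7 TPM, a 3.67-fold range. The highest-to-lowest ratio in *D/F* DMSO was 3.88 for *Nfkbie*, 3.23 for *Rel*, 3.01 for *Tnfaip3* and 2.72 for *Nfkb2*. In *D/F* it was lowest for *Rela*, the main transactivating subunit, at 1.32. In *T/F* DMSO *Nfkbib* (1.13) and *Rela* (1.14) had the lowest ratios.

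The same mice were high for most members. *D/F* mouse 2 was the highest of its genotype for 8 of the 10 members under DMSO and for 8 under CCS1477. *D/F* mouse 1 was the lowest for 8 and 9 members. *T/F* mouse 3 was the highest for 10 members under DMSO and 8 under CCS1477, and *T/F* mouse 1 the lowest for 7 and 9. The exceptions in *D/F* were *Nfkbib* and *Bcl3*, for which mouse 2 was the lowest under DMSO. The median TPM over all genes was also highest in *D/F* mouse 2 and *T/F* mouse 3. In DMSO it was 20.4 TPM against 16.5 and 16.1 TPM in *D/F*, and 17.8 TPM against 16.3 and 16.7 TPM in *T/F*. With CCS1477 it was 20.02 TPM in *D/F* mouse 2 and 18.82 TPM in *T/F* mouse 3, again the highest of each genotype. Whether these ranks are particular to the members was not tested. Over the 12 libraries, log2(TPM + 1) values of *Relb* and *Rel* correlated with Pearson's r = 0.95, those of *Nfkb2* and *Nfkbia* with r = 0.95, and those of *Nfkbia* and *Nfkbie* with r = 0.94. These are descriptions, since the 12 points come from 6 mice.

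*D/F* mouse 2 and *T/F* mouse 3 also stood apart in the sum of 8 mature neutrophil markers, among them *S100a8*, *Ltf* and *Ngp*, though not in every marker. *Mmp8*, for example, was at 59.3 TPM in the DMSO library of *T/F* mouse 3 and at 46.1 TPM in that of *D/F* mouse 1. All 8 markers were listed. Their sum was 1629 to 2683 TPM in the 4 libraries of these 2 mice and 5182 to 9428 TPM in the other 8 libraries. The sum of the 5 subunits ran the other way, at 382 to 489.7 TPM in those 4 libraries and 192 to 288 TPM in the other 8. The DMSO library of *D/F* mouse 2 also had the most *Cd34*, a stem and progenitor marker, at 447 TPM against 110 and 138 TPM in the other *D/F* mice, and the least of the granule protein genes *Mpo* (1163 TPM), *Elane* (454 TPM) and *Ctsg* (849 TPM) in that group. *Kit*, the gene of the sorted marker, was present in all libraries, at 50.5 to 149 TPM in DMSO and 22.8 to 54.9 TPM in CCS1477. *Ptprc*, which encodes the blood cell antigen CD45, was only at 0.826 to 3.11 TPM throughout. Of other lineages, the highest sums in any library were 182 TPM over the mast cell and basophil markers (3 of 4 listed) and 41.9 TPM over the dendritic cell markers (4 of 5). They were 32.1 TPM over the macrophage (4 of 8), 31.5 TPM over the erythroid (5 of 6) and 25.7 TPM over the T cell markers (3 of 6). For the B cell markers (2 of 5) the highest sum was 23.2 TPM, and for the NK cell markers (2 of 4) it was 13.1 TPM. *Cd3e*, *Ncr1* and *C1qa*, which define the T cell, NK cell and macrophage lists, were not in the table analysed here. In a bulk library, fewer cells of a type and less RNA per cell cannot be told apart, and the part of cell composition in the spread of the members was not tested.

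**Figure D2:**
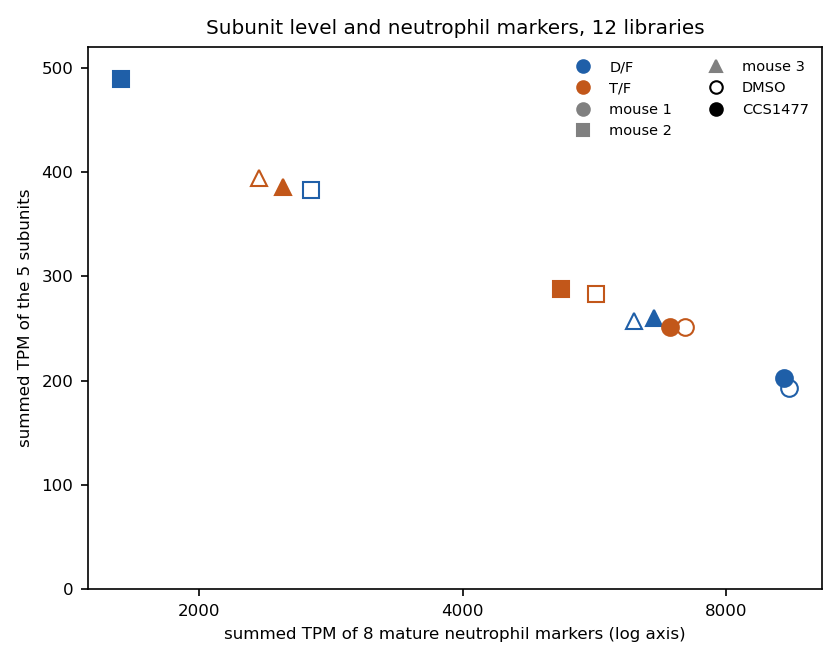
Summed TPM of the 5 subunits against the summed TPM of 8 mature neutrophil markers (log axis) in the 12 libraries, colored by genotype, shaped by mouse number, open for DMSO and filled for CCS1477. The 4 libraries of *D/F* mouse 2 and *T/F* mouse 3 lie at the upper left, at 1629 to 2683 TPM of neutrophil markers and 382 to 489.7 TPM of subunits.

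To find which members changed with p300/CBP inhibition, the CCS1477 and DMSO libraries of a genotype were set against each other. In limma, with Benjamini-Hochberg adjustment over all genes and each library as a separate sample, 0 of the 10 members passed an adjusted p of 0.05 in *D/F*, where 11.6% of the 15501 genes tested did. In *T/F* 0 of 10 passed as well, where 43.4% of 15256 genes did. At an unadjusted p under 0.05 the counts were 0 in *D/F* and 1 in *T/F*, the 1 being *Nfkbib*. The median log2 difference of the members was 0.35 in *D/F* against 0.06 over all genes, and 0.09 in *T/F* against 0.07 over all genes. Because each mouse was split over both treatments, a fit with the mouse as a block sets each CCS1477 library against the DMSO library of the same animal. With it, 3 members rose and none fell in *D/F*, where 39.3% of all genes passed. In *T/F* 2 rose and 1 fell, where 54.1% passed. Without *D/F* mouse 2, 2 members rose in the blocked fit of *D/F*, where 33.0% of genes passed.

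*Nfkb2* encodes p100, the precursor of p52, and was the subunit with the largest difference in *D/F*. It was at 19.4 TPM, 52.9 TPM and 33.0 TPM in DMSO and at 38.5 TPM, 138.8 TPM and 53.5 TPM in CCS1477 in *D/F* mice 1, 2 and 3. Each mouse was higher with CCS1477, but the groups overlapped, since mouse 1 with CCS1477 lay below mouse 2 with DMSO. The log2 difference was 1.00 ± 0.55 (SE, n = 3 mice), with adjusted p = 0.273 in limma without the block. With the mouse as a block it was 1.00 ± 0.16 (SE) with adjusted p = 0.0153, and without mouse 2 it was 0.82 with adjusted p = 0.0271 in the blocked fit. In *T/F* it was at 30.8 TPM, 39.5 TPM and 56.4 TPM in DMSO and at 38.1 TPM, 48.0 TPM and 66.2 TPM in CCS1477. The *T/F* ratios lay between 1.17 and 1.24 in the 3 mice, against 1.62 to 2.62 in *D/F*. The log2 difference in *T/F* was 0.27, with adjusted p = 0.482 without and 0.0159 with the mouse as a block in limma.

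*Relb* was higher with CCS1477 in 3 of 3 *D/F* mice, at 11.6 TPM, 76.1 TPM and 20.0 TPM against the DMSO values given above. Its log2 difference in *D/F* was 0.58, with adjusted p = 0.695 without and 0.0431 with the mouse as a block in limma. The ratios in *D/F* mice 1, 2 and 3 were 1.74, 1.75 and 1.18. Without mouse 2 the blocked fit in limma gave a log2 difference of 0.47 with adjusted p = 0.115. The blocked fit was not run without mouse 1 or 3, so it cannot say whether the call depended on mouse 2. In *T/F* *Relb* was at 15.9 TPM, 21.6 TPM and 39.4 TPM with CCS1477, higher in mouse 1 and lower in mice 2 and 3.

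*Rel* encodes c-Rel, a subunit known from lymphoid and myeloid cells. In *T/F* it was at 24.3 TPM, 35.1 TPM and 46.6 TPM in DMSO and at 29.9 TPM, 42.0 TPM and 57.3 TPM in CCS1477. The 3 ratios were within 1.20 to 1.23 although the mice themselves differed 1.92-fold under DMSO. The log2 difference was 0.28, with adjusted p = 0.508 without and 0.0134 with the mouse as a block in limma. In *D/F* *Rel* was at 18.1 TPM, 58.5 TPM and 28.0 TPM in DMSO and at 26.4 TPM, 59.6 TPM and 36.3 TPM in CCS1477, with a log2 difference of 0.30 that passed in neither fit (blocked adjusted p = 0.132).

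*Nfkb1* had lower values with CCS1477 in 6 of 6 mice. It went from 115.5 TPM, 184.3 TPM and 142.1 TPM to 91.1 TPM, 169.8 TPM and 111.1 TPM in *D/F*, and from 148.5 TPM, 143.0 TPM and 204.0 TPM to 128.8 TPM, 133.3 TPM and 181.9 TPM in *T/F*. The log2 differences of -0.27 and -0.16 did not pass in limma, with blocked adjusted p of 0.0929 and 0.0669. *Rela* had higher values in 6 of 6 mice, but by ratios of only 1.03 to 1.11, with log2 differences of 0.08 for *D/F* and 0.11 for *T/F* that passed in neither fit.

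The makeup of the subunit transcripts differed between treatments in each mouse, while their sum differed by less than the spread between mice. The share of *Nfkb1* in the summed subunit TPM was 54.5% ± 5.96 (SD, n = 3) in *D/F* DMSO and 40.8% ± 5.40 (SD, n = 3) in *D/F* CCS1477, and it was lower in each mouse. That of *Nfkb2* was 12.3% ± 1.93 (SD, n = 3) and 22.6% ± 5.00 (SD, n = 3), and it was higher in each mouse. In *T/F* the *Nfkb1* share was 53.8% ± 4.63 (SD, n = 3) and 48.3% ± 2.63 (SD, n = 3), and the *Nfkb2* share 13.5% ± 1.11 (SD, n = 3) and 16.3% ± 1.05 (SD, n = 3). The *Nfkb2* shares of the treatments did not overlap in either genotype. These shares are sums over members and were not tested.

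**Figure D3:**
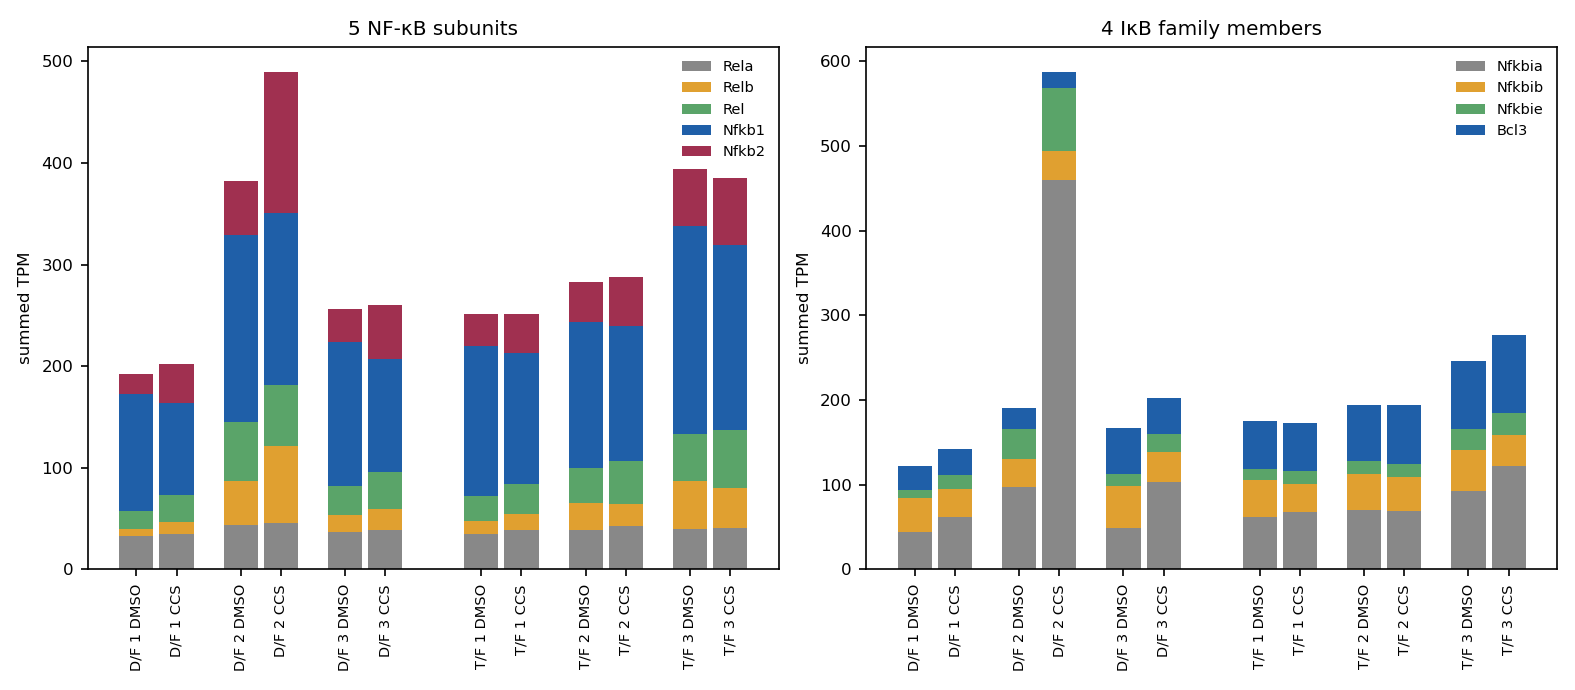
Summed TPM of the 5 subunits (left) and of the 4 IκB family members (right) in each library, each bar split by gene, with the number in a label giving the mouse. The *Nfkb2* segment is taller with CCS1477 in 6 of 6 mice, and the IκB sum of *D/F* mouse 2 with CCS1477 reaches 587 TPM, of which *Nfkbia* makes 78.3%.

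Among the inhibitors, *Nfkbia* encodes IκBα, the classical feedback inhibitor. It had the largest mean difference of the members in *D/F* and also the least even one. It was at 44.0 TPM, 96.8 TPM and 49.5 TPM in DMSO and at 61.8 TPM, 459.7 TPM and 102.8 TPM in CCS1477 in *D/F* mice 1, 2 and 3. All 3 mice were higher, with ratios of 1.41, 4.75 and 2.08, and the library of mouse 2 with CCS1477 stood above the other 11. The log2 difference was 1.25 ± 0.74 (SE, n = 3 mice), and limma gave adjusted p = 0.309 without and 0.0578 with the mouse as a block. Its size rested on mouse 2: without that animal the log2 difference was 0.76, below the 0.82 of *Nfkb2*, with adjusted p = 0.0567 in the blocked fit. In *T/F* it was at 62.2 TPM, 70.7 TPM and 92.9 TPM in DMSO and at 67.4 TPM, 69.1 TPM and 121.5 TPM in CCS1477, higher in 2 of 3 mice.

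*Nfkbie* encodes IκBε, another inhibitor of RelA- and c-Rel-containing dimers. In *D/F* it was at 9.12 TPM, 35.4 TPM and 13.9 TPM in DMSO and at 16.5 TPM, 73.8 TPM and 20.6 TPM in CCS1477. The 3 ratios were 1.49 to 2.09, and the treatments overlapped because of mouse 2. The log2 difference was 0.79 ± 0.68 (SE, n = 3 mice), with adjusted p = 0.480 in limma. The blocked fit gave an adjusted p of 0.0159, which was 0.0346 when mouse 2 was also left out. In *T/F* *Nfkbie* had ratios of 1.03 to 1.14 and a log2 difference of 0.09 that passed in neither fit.

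*Nfkbib* encodes IκBβ, which differs from IκBα in being degraded and resynthesized more slowly. It was the only member with lower values and no overlap of treatments in *T/F*, at 43.0 TPM, 42.3 TPM and 47.9 TPM in DMSO and 33.9 TPM, 39.7 TPM and 37.7 TPM in CCS1477. Over all genes tested, 56.1% had no overlap in that comparison. The log2 difference was -0.25 ± 0.09 (SE, n = 3 mice), with adjusted p = 0.0618 without and 0.0530 with the mouse as a block in limma. In *D/F* it was at 40.3 TPM, 34.1 TPM and 48.8 TPM in DMSO and 32.8 TPM, 34.7 TPM and 35.9 TPM in CCS1477, lower in 2 of 3 mice. Of the 10 members, 0 had treatments without overlap in *D/F*, where 36.6% of genes did.

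*Bcl3* encodes a nuclear IκB protein that binds p50 and p52 dimers. With CCS1477 it had log2 differences of -0.21 for *D/F* and 0.08 for *T/F*, of opposite sign and within the spread between mice. *Tnfaip3* encodes A20, a ubiquitin-editing enzyme that shuts the pathway off upstream of IKK. It was at 10.3 TPM, 31.1 TPM and 11.3 TPM in *D/F* DMSO and at 10.7 TPM, 53.9 TPM and 15.0 TPM in *D/F* CCS1477, higher in 3 of 3 mice. In *T/F* it was at 16.2 TPM, 16.2 TPM and 23.3 TPM in DMSO and at 13.3 TPM, 10.1 TPM and 18.0 TPM in CCS1477, lower in 3 of 3 mice. The *T/F* log2 difference was -0.41, with adjusted p = 0.206 without and 0.0247 with the mouse as a block in limma. In *D/F* the log2 difference was 0.40 (blocked adjusted p = 0.123).

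**Figure D4:**
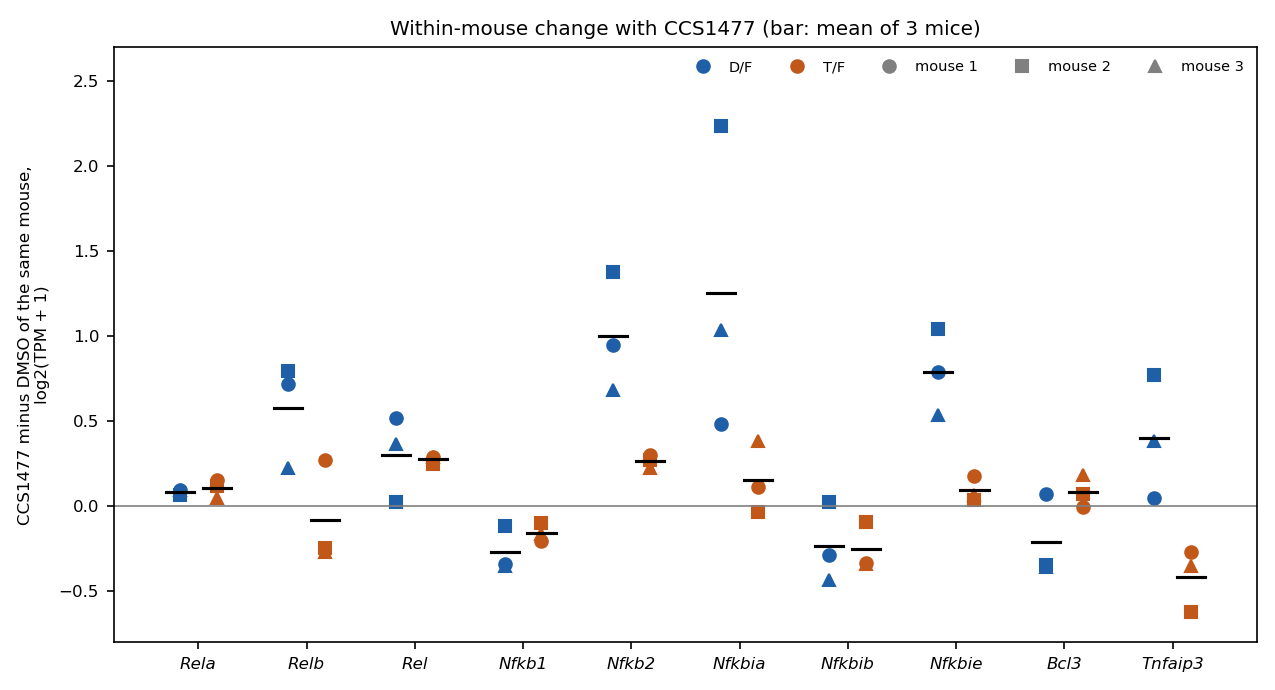
Difference in log2(TPM + 1) between the CCS1477 and DMSO libraries of the same mouse for each member, blue for *D/F* and orange for *T/F*, with a marker shape for the mouse number and a black bar at the mean of 3 mice. *Nfkb2* and *Nfkbie* lie above 0 in 6 of 6 mice, *Nfkb1* lies below 0 in 6 of 6, and *Tnfaip3* lies above 0 in *D/F* and below 0 in *T/F*.

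The 4 IκB members together were at 160 ± 34.6 TPM (SD, n = 3) in *D/F* DMSO and 310.4 ± 242 TPM (SD, n = 3) in *D/F* CCS1477. In *T/F* they were at 205 ± 37.0 TPM and 214 ± 55.2 TPM (SD, n = 3 each). The ratio of IκB to subunit TPM was 0.637, 0.499 and 0.651 in *D/F* DMSO and 0.701, 1.20 and 0.776 in *D/F* CCS1477. It was higher in each *D/F* mouse with CCS1477, and the treatments did not overlap. In *T/F* the ratio was 0.625 to 0.696 in DMSO and 0.673 to 0.718 in CCS1477, higher in mouse 3 only.

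With all 6 mice in 1 fit and genotype as a term, 1 of the 10 members passed in limma, against 45.3% of 15583 genes. *Nfkbib* fell, with a log2 difference of -0.24 ± 0.09 (SE) and adjusted p = 0.0439, in 5 of 6 mice. That call was lost without mouse 1 or 3 of *D/F* and without any one of the *T/F* mice, with adjusted p between 0.0751 and 0.130 in limma. With the mouse as a block, 5 members passed, against 60.3% of genes. *Rel* (log2 difference 0.29, adjusted p = 0.00783), *Nfkb2* (0.63, adjusted p = 0.0117) and *Nfkbie* (0.44, adjusted p = 0.0341) rose in the blocked limma fit. *Nfkb1* (-0.21, adjusted p = 0.0118) and *Nfkbib* (-0.24, adjusted p = 0.0212) fell in it. Without *D/F* mouse 2, *Nfkbie* no longer passed (adjusted p = 0.0668) and the other 4 did, against 60.3% of genes. Values moved the same way in all 6 mice for 5 members, as they did for 56.0% of all genes. These were *Rela*, *Rel*, *Nfkb2* and *Nfkbie*, which were higher, and *Nfkb1*, which was lower.

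The genotypes' responses to CCS1477 were compared directly with an interaction term. No member passed in limma (0 of 10), with or without the block, and neither did any of the 15583 genes (0.0%). At an unadjusted p under 0.05 there were 0 members without the block, where 4.23% of genes were, and 5 in the blocked fit, where 14.7% were. These 5 were *Relb*, *Nfkb2*, *Nfkbia*, *Nfkbie* and *Tnfaip3*, with adjusted p of 0.190 to 0.334 in limma. Without *D/F* mouse 2 there were 4 of them, all but *Relb*, where 15.6% of genes were. For *Nfkb2* the *T/F* response was lower than that of *D/F* by a log2 difference of -0.74 with a 95% confidence interval of -2.24 to 0.77. For *Nfkbia* the difference was -1.10 (95% confidence interval -3.04 to 0.85) and for *Nfkbie* -0.70 (-2.53 to 1.13). These intervals hold 0. In the blocked fit the intervals were -1.18 to -0.29 for *Nfkb2*, -2.17 to -0.025 for *Nfkbia* and -1.05 to -0.34 for *Nfkbie*, which do not hold 0 but are not adjusted for the number of genes tested.

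The genotypes were then compared within each treatment. Under DMSO all 10 members had higher mean log2 values in *T/F* than in *D/F*, as 42.2% of all genes tested did. The same mice were high for most members, so these are not 10 separate observations. In limma 0 of 10 passed, where 0.0328% of 15265 genes did. For 6 members the sign turned when a single mouse was left out, *D/F* mouse 1 for *Relb*, *Nfkb2* and *Tnfaip3*, that mouse or others for *Rela*, *Rel* and *Nfkbie*. For *Nfkbib* it turned without *D/F* mouse 2, to a value near 0. *Bcl3* was the only member whose genotypes did not overlap. It was at 29.2 TPM, 24.4 TPM and 55.0 TPM in *D/F* DMSO and at 56.5 TPM, 66.2 TPM and 80.7 TPM in *T/F* DMSO. With CCS1477 it was at 30.8 TPM, 19.0 TPM and 42.7 TPM in *D/F* and at 56.3 TPM, 69.8 TPM and 91.8 TPM in *T/F*. The log2 difference was 0.96 ± 0.32 (SE, n = 3 per genotype) under DMSO and 1.25 ± 0.32 under CCS1477, with adjusted p of 0.691 and 0.284 in limma. Of all genes, 12.6% had genotypes without overlap under DMSO and 20.3% under CCS1477. Under CCS1477, 5 members were higher and 5 lower in *T/F*, and 0 passed, where 0.0329% of 15199 genes did. At an unadjusted p under 0.05 there was 1 member in each treatment, which was *Bcl3*.

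The other genes of the pathway were taken from 5 lists of 101 genes, of which 96 were in the table. Without the block, 2 rose and 12 fell of 96 tested in *D/F*, where 5.14% of all genes rose and 6.51% fell. In *T/F* 17 rose and 23 fell of 95 tested, where 25.8% of all genes rose and 17.6% fell. With the mouse as a block, 19 rose and 28 fell in *D/F*, and 26 rose and 35 fell in *T/F*, beside the shares of 39.3% and 54.1% of all genes given above. Of the 10 members, 0 passed in each genotype without the block, which is the fit shown in the plot of the lists. The blocked fit had 3 members higher in *D/F*, and 2 higher and 1 lower in *T/F*.

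Of the 14 genes of the IKK complex and its upstream kinases, 0 rose and 1 fell in *D/F*, and 6 rose and 2 fell in *T/F*. The blocked fit gave 3 higher and 1 lower for *D/F*, and 7 higher and 1 lower for *T/F*. *Irak1*, a kinase of the interleukin-1 and Toll-like receptor branch, fell in both genotypes, with log2 differences of -0.94 (adjusted p = 0.0223) in *D/F* and -0.62 (adjusted p = 0.00186) in *T/F*. It was at 154, 157 and 123 TPM in *D/F* DMSO and 68.1, 74.0 and 81.5 TPM in *D/F* CCS1477. *Chuk*, a catalytic subunit gene named after its values were seen, passed over both genotypes with a log2 difference of 0.29 (adjusted p = 0.0255 in limma). Of the single genotypes, it passed in the blocked fit of *T/F* (adjusted p = 0.0323). *Ikbkb*, the gene of the other catalytic subunit, was lower with CCS1477 in each mouse. It went from 75.5, 128 and 87.0 TPM to 73.7, 107 and 76.9 TPM in *D/F*. In *T/F* it went from 83.8, 92.4 and 111 TPM to 80.6, 79.3 and 91.1 TPM.

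Of 20 adaptors and receptors, 1 rose and 3 fell in *D/F*, and 2 rose and 6 fell in *T/F*. With the block it was 4 and 6 for *D/F*, and 5 and 7 for *T/F*. *Il1r1*, the signaling receptor for interleukin-1, was at 11.7, 30.3 and 15.0 TPM in *D/F* DMSO and at 3.51, 5.25 and 3.29 TPM in *D/F* CCS1477. It fell by 1.91 on the log2 scale in *D/F* (adjusted p = 0.0256) and by 1.14 in *T/F* (adjusted p = 0.0364). *Tnfrsf1b*, which encodes a tumor necrosis factor receptor, fell by 0.90 and 0.87, and *Card9*, an adaptor of fungal pattern recognition receptors, by 1.51 and 1.03 in *D/F* and *T/F*. *Tradd*, an adaptor of the tumor necrosis factor receptor, rose by 0.66 in *D/F* (adjusted p = 0.0341) and 0.63 in *T/F* (adjusted p = 0.00243).

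Of 16 other brakes and atypical IκB genes, 0 rose and 1 fell in *D/F*, and 4 rose and 2 fell in *T/F*. With the block it was 3 and 3 for *D/F*, and 6 and 3 for *T/F*. *Nfkbid*, which encodes the nuclear protein IκBNS, fell by 0.73 in *D/F* (adjusted p = 0.0493) and by 0.83 in *T/F* (adjusted p = 0.000905). *Nfkbiz*, which encodes the nuclear protein IκBζ and was named after its values were seen, was the only gene of this list more than 2-fold higher over both genotypes. It went from 10.9, 16.8 and 13.3 TPM to 28.2, 86.1 and 31.8 TPM in *D/F*, and from 12.96, 14.7 and 16.98 TPM to 22.7, 22.2 and 33.2 TPM in *T/F*. Its log2 difference over both was 1.17 (adjusted p = 0.00474 in limma), and it rose within *T/F* (adjusted p = 0.0193) and, in the blocked fit alone, within *D/F* (adjusted p = 0.0150). Of 9 genes for linear ubiquitin and IκB degradation, 0 passed in *D/F* and 3 rose in *T/F*, and 3 rose in each with the block.

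Most of the NF-κB target genes that passed fell. Of 42 listed targets, 37 were in the table and 5 were not, namely *Cxcl1*, *Cxcl2*, *Il1a*, *Ptgs2* and *Csf3*. In *D/F* 1 rose and 7 fell of 37 tested, and in *T/F* 2 rose and 13 fell of 36 tested. With the block, 6 rose and 18 fell in *D/F*, and 5 rose and 24 fell in *T/F*. The median log2 difference came to -0.56 for *D/F* and -0.75 for *T/F*, against 0.06 and 0.07 over all genes. *Clec4e*, a receptor for damaged cells and mycobacteria, was at 21.6, 26.5 and 19.8 TPM in *D/F* DMSO and at 0.849, 2.63 and 1.18 TPM in *D/F* CCS1477. It fell by 3.26 on the log2 scale in *D/F* (adjusted p = 0.0043) and by 2.11 in *T/F* (adjusted p = 0.000555). *Olr1*, a scavenger receptor, fell by 2.80 and 2.03, *Il1rn*, the interleukin-1 receptor antagonist, by 1.62 and 1.35, and *Ebi3*, a cytokine subunit, by 1.51 and 1.07. The 3 that rose without the block were *Ier3* in *D/F* (log2 difference 1.31, adjusted p = 0.018) and *Peli1* (0.65, adjusted p = 0.00745) and *Tnfsf9* (0.80, adjusted p = 0.00873) in *T/F* in limma. In the blocked fit *Ier3* also rose in *T/F* (adjusted p = 0.00232) and *Peli1* in *D/F* (0.00518). The progenitor list holds *Kit*, *Flt3*, *Cd34*, *Ptprc* and the granule protein genes *Mpo*, *Elane* and *Ctsg*. Those granule protein genes made up most of its sum. *D/F* mouse 2 had the lowest sum in both treatments, although its DMSO library had the most *Cd34* of that group. The sum was 3109 to 7995 TPM in *D/F* DMSO and 679 to 3337 TPM in *D/F* CCS1477. In *T/F* it was 3007 to 4578 TPM in DMSO and 1267 to 2236 TPM in CCS1477. Markers of some other cell types were lower as well, while the mature neutrophil, T cell and erythroid sums overlapped between treatments in both genotypes. The neutrophil sum hides a split among its markers. *Ly6g*, *Camp*, *Retnlg* and *Mmp8* were lower with CCS1477 in each mouse of both genotypes. *S100a8*, *S100a9*, *Ltf* and *Ngp*, which made up most of the sum, were higher in some mice and lower in others. The B cell sum (2 of 5 listed) was 10.8 to 23.2 TPM in *D/F* DMSO and 4.13 to 9.54 TPM in *D/F* CCS1477. In *T/F* it was 16.8 to 20.5 TPM and 11.3 to 14.2 TPM. Most of that sum was *Cd79b*, and the other listed gene, *Pax5*, went the other way in *D/F*. *Pax5* was at 0.368, 0.445 and 0.374 TPM in *D/F* DMSO and at 0.918, 1.32 and 0.488 TPM in *D/F* CCS1477. The macrophage sum, which includes the listed target *Vcam1*, was 16.0 to 22.3 TPM in *D/F* DMSO and 2.72 to 4.31 TPM in *D/F* CCS1477, and 19.3 to 32.1 TPM and 5.93 to 12.3 TPM in *T/F*. The mast cell and basophil sum was 87.0 to 182 TPM and 17.8 to 40.3 TPM in *D/F*, and 39.7 to 78.9 TPM and 18.1 to 38.2 TPM in *T/F*. The NK cell sum was 2.69 to 9.64 TPM and 0.481 to 1.43 TPM in *D/F*, and 2.44 to 13.1 TPM and 0.556 to 1.76 TPM in *T/F*. The dendritic cell sum was 7.93 to 41.9 TPM and 4.85 to 8.54 TPM in *D/F*, which overlap, and 12.7 to 34.2 TPM and 6.52 to 10.6 TPM in *T/F*. The part of these cell types in the lower targets was not tested.

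**Figure D5:**
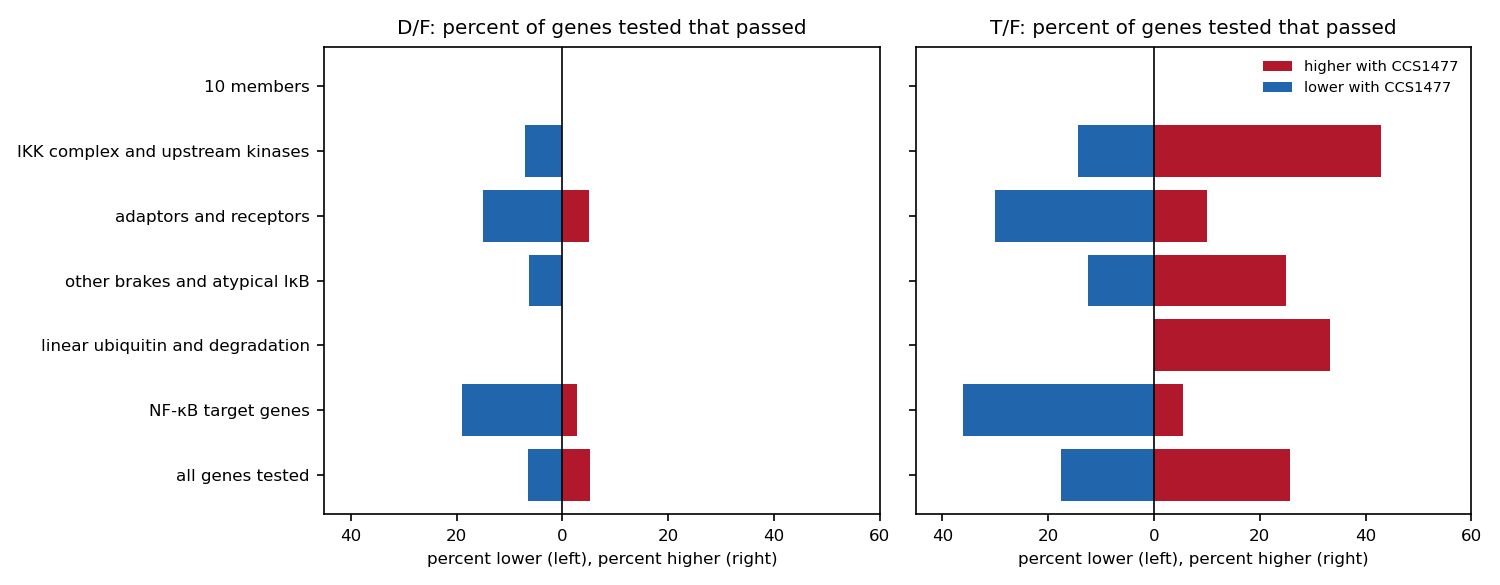
Percent of the genes tested in each list that passed an adjusted p of 0.05 in limma without the block, to the right for higher and to the left for lower with CCS1477, in *D/F* (left panel) and *T/F* (right panel). The 10 members show no bar in either genotype, while the target genes reach further to the left than all genes tested (6.51% for *D/F* and 17.6% for *T/F*).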

How the data were processed

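RNA sequencing of 12 libraries was analysed from the TPM values that the authors deposited for 15651 genes. The submitters' processing notes name kallisto and mm10. The authors' tests were run in AltAnalyze, and no column of their comparisons was used. Every gene reached at least 2.00 TPM in some library. The listed genes of a library summed to 914204 to 931697 TPM. TPM keeps no read depth, so depth is unknown and no counting interval is given. Genes whose mean reached 1 TPM in a compared group were tested on log2(TPM + 1) with limma 3.58.1 in R 4.3.3 (eBayes without a trend, two-sided, Benjamini-Hochberg over all genes tested, passed at an adjusted p under 0.05). Fold changes on this scale understate the change of low genes. In the main fit, libraries entered as independent samples. The labels number the mice within a genotype, and each number marks the animal split over both treatments. Deviations from group means correlated at 0.46 to 0.73 within a mouse, against at most 0.21 between different mice of a genotype under different treatments (at most 0.52 between genotypes), so fits with the mouse as a replicate block are printed beside the results they change. The rule for naming genes was all 10 members and, of each pathway list, up to 4 genes per direction that passed in both genotypes with the largest smaller log2 difference and at least 5 TPM in a group of each genotype. Genes most like a member were to be named for members that passed in both genotypes, and there were none. The members and all lists were chosen with earlier results of these data known. Alternatives tried were a pseudocount of 0.1 TPM, filters at 5 TPM or none, median rescaling, quantile normalization, eBayes with a trend, the block and leaving out each mouse. The fit without the block was tested on simulated data in which libraries were independent. The simulation held no mouse effect, so it does not cover the pairing of the real libraries or the blocked fit.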

Additional observations from a re-analysis of the deposited data

Results flagged for a closer look

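*Tnfaip3* moved in opposite directions in the 2 genotypes, with higher TPM under CCS1477 in 3 of 3 *D/F* mice and lower TPM in 3 of 3 *T/F* mice. The *T/F* response minus the *D/F* response was -0.82 on the log2 scale (95% confidence interval -2.56 to 0.92), with an unadjusted p of 0.321 and adjusted p = 1.00 in limma. The fit blocked by mouse gave a 95% confidence interval of -1.32 to -0.31, an unadjusted p of 0.00727 and, over all genes, an adjusted p of 0.217 in limma. Without *D/F* mouse 2 as well, the difference was -0.63 (unadjusted p = 0.0121, adjusted p = 0.223 in limma). *D/F* mouse 1 moved by a ratio of only 1.04 and *D/F* mouse 2 by 1.73.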

How the results depend on the processing

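Without the replicate block, 0 members passed in *D/F* under every alternative run, but without mouse 1 or 3 no gene of the whole table passed either (0.0%), so those fits say nothing of the members. With the mouse as a replicate block the number passing was 3 in *D/F*, 3 in *T/F* and 5 over both genotypes, and without *D/F* mouse 2 as well (chosen after seeing the data) it was 2 in *D/F*, 4 over both and 0 in the interaction. In *T/F* 1 member, *Nfkbib*, passed with the filter at 5 TPM (adjusted p = 0.0463), median rescaling (0.0189), quantile normalization (0.0355) and eBayes with a trend (0.0416). Over both genotypes *Nfkbib* no longer passed with median rescaling (adjusted p = 0.0607) or quantile normalization (0.0659), leaving 0 members. There were also 0 above 2-fold, and 0 to 1 with single mice left out. The block changed no other call between treatments and none in the interaction at an adjusted p.

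The sign of *Rela* in the interaction turned with median rescaling, to -0.014. All other reversals came from leaving out 1 mouse and concerned log2 differences that passed in no fit of their comparison. With single mice left out, *Relb* in *T/F* ran from -0.26 to 0.015 and *Tnfaip3* over both genotypes from -0.16 to 0.12. In the interaction *Rela* ran from -0.0018 to 0.051, *Rel* from -0.16 to 0.083 and *Nfkbib* from -0.12 to 0.11. In *T/F* against *D/F* under DMSO the ranges were -0.081 to 0.12 for *Rela*, -0.10 to 1.17 for *Relb*, -0.24 to 0.58 for *Rel*, -0.027 to 0.67 for *Nfkb2*, -0.0012 to 0.25 for *Nfkbib*, -0.39 to 0.54 for *Nfkbie* and -0.040 to 0.71 for *Tnfaip3*. Under CCS1477 they were -0.055 to 0.13 for *Rela*, -0.69 to 0.62 for *Relb*, -0.16 to 0.42 for *Rel*, -0.79 to 0.12 for *Nfkb2*, -1.38 to 0.053 for *Nfkbia* and -1.04 to 0.079 for *Tnfaip3*. The causes were not tested. The number of mice, 3 per genotype, and their spread limit the precision, and read depth is unknown.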

Other observations

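The CCS1477 library of *D/F* mouse 2 was high not only for *Nfkbia* (459.7 TPM) but also for other genes of the pathway, named here after their values were seen. *Ccl3*, a chemokine gene, was at 291 TPM there, against 18.9 TPM in the DMSO library of the same mouse and 2.49 and 3.46 TPM in the CCS1477 libraries of the other *D/F* mice. *Ikbke*, a kinase related to IKK, was at 323 TPM against 99.4 TPM in its DMSO library and 72.9 to 128 TPM in the other 10 libraries. *Icam1*, an adhesion molecule, was at 63.8 TPM against 30.8 TPM, while *Il1b* went the other way in this mouse, from 45.6 to 2.31 TPM. *Traf1*, a signaling adaptor, followed the mice as *Relb* did, at 6.90, 60.1 and 30.6 TPM in *D/F* DMSO and 10.3, 36.8 and 72.0 TPM in *T/F* DMSO. No test was made of these values.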
